A study of Homo sapiens with 6 samples.

Results

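The genes described here are 51 proteoglycan core proteins and enzymes that build or trim glycosaminoglycan chains, taken by symbol from the 23346 genes of the count table. The set holds 24 core proteins (8 small leucine-rich proteoglycans, 2 hyaluronan-binding proteoglycans, 4 syndecans, 6 glypicans and 4 others) and 27 enzymes (4 for the linker, 11 for chondroitin and dermatan sulfate chains and 12 for heparan sulfate chains). The symbols were taken by function, with earlier results of these data known, and all 51 were found in the table.

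Proteoglycans are core proteins that carry long sulfated sugar chains, the glycosaminoglycans. A short linker begun with xylose on a serine of the core protein is extended either as heparan sulfate, by the EXT enzymes, or as chondroitin and dermatan sulfate, by the CHSY and CHPF enzymes. The chains are then sulfated at set positions, and the pattern of sulfates governs which growth factors and matrix proteins they hold. Around tumor and stromal cells, small leucine-rich proteoglycans organize collagen fibrils, versican swells the matrix with hyaluronan, and syndecans and glypicans carry chains at the cell surface.

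BT549 is a human breast cancer cell line that the labels call mesenchymal and of WT genotype. In all 6 libraries the cells were grown in RPMI with 10% FCS, were transfected with 20 nM siRNA and gave RNA after 6 d. The 3 NC siRNA libraries come from cells given negative control siRNA, and the 3 BNC2 siRNA libraries from cells given an equal mix of 3 siRNAs against BNC2, a zinc finger protein. The first are called the controls and the second the knockdown libraries. The comparison asks which of these genes changed with BNC2 knockdown. The labels name Lipofectamine 2000 as the reagent, whereas the methods name RNAiMax, and a single cell line was used.

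The libraries held 16093978 to 18246254 counts on genes. BNC2 itself had 65.6, 51.5 and 58.6 CPM (counts scaled to the library size, TMM-normalised) in the controls, and 35.5, 36.6 and 41.6 CPM in the knockdown libraries. It was lower in each BNC2 siRNA library, at 64.6% of the NC siRNA level (log2 fold change -0.63 with a standard error, SE, of 0.09, adjusted p = 8.2e-06), so its transcript was reduced but not lost. All 8 mesenchymal markers were expressed, with summed levels of 6692 to 6808 CPM in the controls, and 6836 to 7083 CPM in the knockdown libraries. Of these markers 5 rose and 2 fell, beside 36.6% and 36.2% of all genes tested. The epithelial markers summed to 4.09 to 6.08 CPM and 0.395 to 0.814 CPM. KRT18 was the one of the 8 that passed the expression filter, and it fell. It passed only through the NC siRNA group, where it was high. CDH1, EPCAM, ESRP1 and GRHL2 had at most 3 counts in any library. The part of these markers in the results below was not tested.

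Of the 51 genes, 35 had more than 1 CPM in 3 or more libraries and were tested with edgeR's quasi-likelihood test, with p-values adjusted by Benjamini-Hochberg over all 12186 genes that passed the filter. At an adjusted p of at most 0.05, 28 of the 35 (80.0%) were called changed, beside 72.9% of all genes tested, so that a call by itself sets little apart in this comparison. Upward calls numbered 15 (42.9%, beside 36.6% of all genes) and downward calls 13 (37.1%, beside 36.2%). The median log2 fold change was 0.06 over the 35 genes and 0.00 over all genes, and the median size of the change was 0.67 beside 0.44. A change of at least 2-fold was called for 11 of the 35 genes (31.4%), beside 18.1% of all genes, and 6 of these rose and 5 fell. The libraries of the groups did not overlap for 30 of the 35 (85.7%), beside 74.9% of all genes. DCN, PODN and SRGN passed the filter only through the NC siRNA group, where they are high, and SULF2 passed through the BNC2 siRNA group, with 1 control above 1 CPM, so counts over the genes tested include genes that entered because a group was high. All 4 were also called when no filter was used. Among the 32 genes with over 1 CPM in libraries of both groups, which leaves out DCN, PODN and SRGN but not SULF2, a change of at least 2-fold was called for 8 (6 up and 2 down), which is 25.0% beside 15.6% of the 11791 genes that meet the same condition. By direction, 18.8% rose and 6.25% fell at least 2-fold, beside 7.76% and 7.87%. At any size, upward calls in these 32 numbered 15 (46.9%, beside 37.2%) and downward calls 10 (31.2%, beside 34.8%). Of the 14 core proteins tested 4 rose and 7 fell, and of the 21 enzymes tested 11 rose and 6 fell, a contrast that was not tested.

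**Figure D1:**
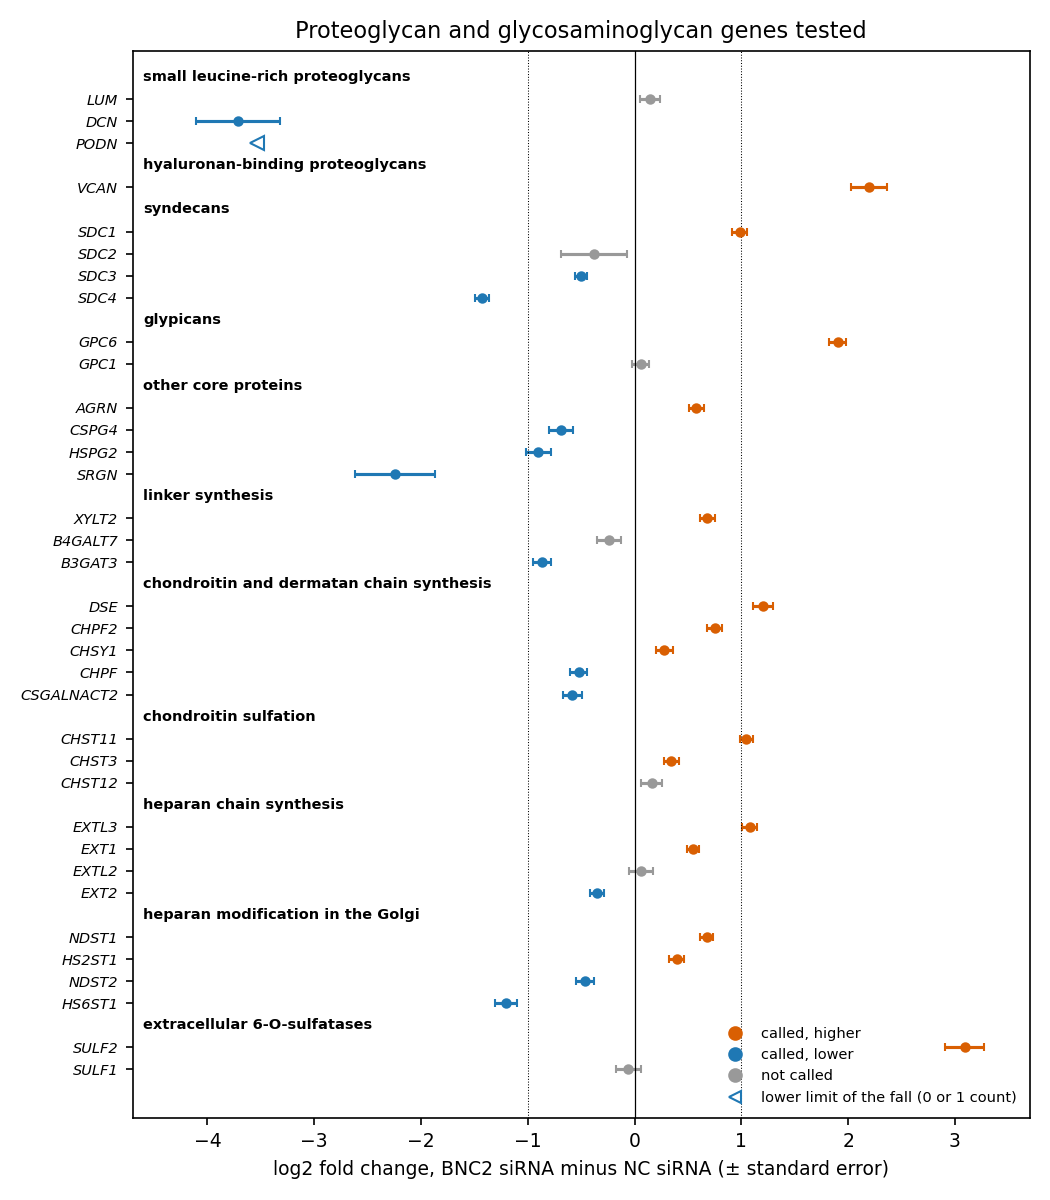
The plot of log2 fold changes shows each of the 35 genes tested, grouped by role, with BNC2 siRNA minus NC siRNA on the x axis and bars for the standard error (3 libraries per group). Orange points were called higher, blue points lower and grey points not called, dotted lines mark a 2-fold change, and the open triangle gives PODN as a limit because its knockdown libraries held 0 or 1 count. SULF2 lies farthest to the right at 3.09, and DCN and PODN lie to the left of -3.

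Transcripts of 2 small leucine-rich proteoglycans were nearly lost with BNC2 siRNA, while lumican, the most abundant of the family here, was not called. DCN (decorin, a collagen-binding proteoglycan that also holds growth factors) had 46, 47 and 47 counts in the controls, and 7, 2 and 1 counts in the knockdown libraries. The controls were close to each other and all far above the others. In CPM the level fell from 2.68 ± 0.127 to 0.195 ± 0.186 (SD, n = 3 each), which is 13.1-fold lower (log2 fold change -3.72 ± 0.39 SE, adjusted p = 2.5e-07). Without BNC2 siRNA replicate 1, the library with 7 counts, the log2 fold change was -4.79. PODN (podocan, another secreted member of the family) had 32, 38 and 38 counts in the controls, and 1, 1 and 0 counts in the knockdown libraries. Taken against a limit of 3 counts per library, PODN was at least 11.6-fold lower (adjusted p = 6.8e-08). In bulk RNA, fewer cells that make a transcript cannot be told apart from less of it per cell.

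LUM, which encodes lumican, a regulator of collagen fibril width, had 15.2, 14.2 and 14.8 CPM in the controls, and 17.0, 15.3 and 16.6 CPM in the knockdown libraries. All knockdown libraries were slightly higher, but the change was not called (log2 fold change 0.14 ± 0.09 SE, adjusted p = 0.19). LUM (chr12:91496406-91505271, minus strand, GRCh37) and DCN (chr12:91534261-91576994, minus strand) lie next to each other in the genome, and one was not called while the other fell. Per kb of transcript, LUM made up 78.2% ± 1.27 (SD, n = 3) of the summed family level in controls and 95.2% ± 1.12 (SD, n = 3) in knockdown libraries. The other 5 members were below the filter. BGN (biglycan) lay between 0.395 and 1.24 CPM in all libraries, with groups that overlapped, PRELP had at most 7 counts in a library, ASPN and OGN had 1 count in 1 library each, and FMOD had none.

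VCAN, which encodes versican, a large chondroitin sulfate proteoglycan that binds hyaluronan, went the other way. Its levels were 2.76, 2.24 and 1.69 CPM in the controls, and 10.2, 11.0 and 9.55 CPM in the knockdown libraries. Every BNC2 siRNA library was well above the controls, which varied among themselves more than the treated ones did in proportion. The rise was 4.58-fold (log2 fold change 2.20 ± 0.17 SE, adjusted p = 5.1e-09). BCAN (brevican), the brain relative of versican, stayed below the filter with at most 0.280 CPM.

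At the cell surface, SDC4 and SDC3 fell while SDC1 and GPC6 rose. Syndecans are transmembrane core proteins. SDC4, a partner of integrins in focal adhesions, had 105.7, 101.7 and 97.6 CPM in the controls, and 36.9, 39.2 and 37.1 CPM in the knockdown libraries. Both groups were tight and far apart, and the fall was 2.69-fold (log2 fold change -1.43 ± 0.06 SE, adjusted p = 8.4e-12). SDC1, best known from epithelial and plasma cells, had 55.6, 56.8 and 51.9 CPM against 115.4, 109.2 and 100.2 CPM. It was higher in each BNC2 siRNA library, just under a doubling (log2 fold change 0.98 ± 0.07 SE, adjusted p = 1.5e-09). Of the epithelial markers, KRT18 fell from 4.63 ± 0.942 to 0.456 ± 0.179 CPM, and the other 7 were below the filter. SDC3 fell from 195.7 ± 5.53 to 138.3 ± 8.48 CPM (log2 fold change -0.50, adjusted p = 1.0e-06). SDC2 was low, at 1.26 ± 0.230 CPM against 0.959 ± 0.295 CPM, with groups that overlapped, and was not called (log2 fold change -0.38, adjusted p = 0.27).

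Glypicans are held to the membrane by a lipid anchor. GPC6 had 79.4, 68.4 and 62.6 CPM in the controls, and 251.1, 254.0 and 281.3 CPM in the knockdown libraries. The rise, seen in every library, was 3.74-fold (log2 fold change 1.90 ± 0.08 SE, adjusted p = 2.8e-12). GPC1, the other glypican that passed the filter, had 35.4 ± 3.17 CPM in the controls, and 36.9 ± 1.94 CPM in the knockdown libraries, and the groups overlapped (log2 fold change 0.06 ± 0.08 SE, adjusted p = 0.56). GPC2 lay between 0.783 and 1.57 CPM, and GPC4 had 1 count in 1 library. GPC3 and GPC5 had no counts, although GPC5 (chr13:92050875-93525935) is the neighbor of GPC6 (chr13:93879060-95060274, both on the plus strand, GRCh37).

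Levels of different genes were compared per kb of the annotated transcript. On that scale the summed level of syndecans and glypicans was 113.7 ± 4.84 CPM per kb in the controls, and 122.4 ± 1.52 CPM per kb in the knockdown libraries (SD, n = 3), while its makeup shifted. In the controls SDC4 gave 34.2% ± 0.273 and SDC3 32.8% ± 0.785 of the sum, SDC1 15.2% ± 0.385, GPC6 8.64% ± 0.710 and GPC1 8.38% ± 0.638. SDC4 was slightly above SDC3 in each control, and the shares of GPC6 and GPC1 were within their spread of each other. In the knockdown libraries GPC6 gave 30.1% ± 2.04 and SDC1 28.0% ± 2.05, which were within their spread of each other, followed by SDC3 with 21.5% ± 1.05, SDC4 with 11.8% ± 0.249 and GPC1 with 8.10% ± 0.415. Divided by coding length instead, the order of the genes just named was the same but the gaps differed. In the controls SDC4 then gave 38.6% ± 0.161 and SDC3 33.3% ± 0.708, and GPC6 9.47% ± 0.757 and GPC1 4.77% ± 0.387. In the knockdown libraries GPC6 gave 33.8% ± 2.22, SDC1 25.0% ± 1.90, SDC4 13.6% ± 0.288 and GPC1 4.73% ± 0.230. The size of a gap between genes thus depended on the length used, while the loss of share by SDC4 and the gain by GPC6 and SDC1 were seen with both. The lengths come from another annotation than the one used for counting, so shares between genes are approximate, whereas the change of each gene is not affected.

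**Figure D2:**
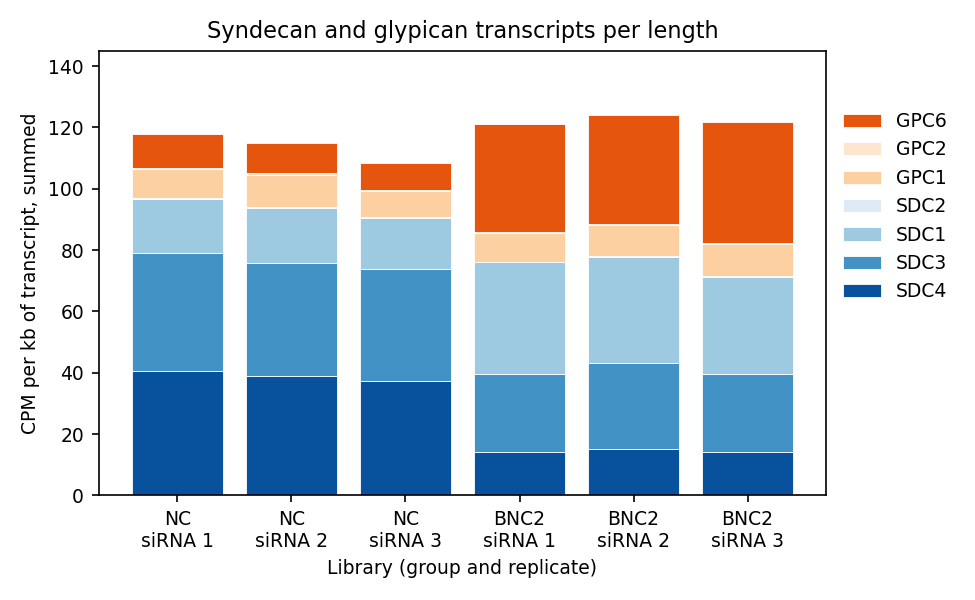
The stacked bars give the level of each syndecan (blue) and glypican (orange) in CPM per kb of transcript for each of the 6 libraries, so that the height is the sum over the genes. The heights average 113.7 with NC siRNA and 122.4 with BNC2 siRNA, while the GPC6 segment grows from 8.64% to 30.1% and the SDC4 segment shrinks from 34.2% to 11.8%.

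Among core proteins of basement membranes and other sites, AGRN rose and HSPG2, CSPG4 and SRGN fell. AGRN, which encodes agrin, a heparan sulfate proteoglycan of basement membranes and the neuromuscular junction, rose from 67.6 ± 5.32 to 100.9 ± 5.65 CPM (log2 fold change 0.58, adjusted p = 1.3e-06). HSPG2, which encodes perlecan, another heparan sulfate core protein of basement membranes, fell from 18.7 ± 1.32 to 9.98 ± 1.43 CPM (log2 fold change -0.90, adjusted p = 2.3e-06). Their ratio per kb was 7.08, 8.22 and 6.10 in the controls, and 18.0, 21.6 and 20.2 in the knockdown libraries, without overlap. CSPG4, the NG2 proteoglycan, fell from 21.7 ± 2.30 to 13.5 ± 1.63 CPM (log2 fold change -0.69, adjusted p = 2.8e-05).

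SRGN encodes serglycin, which packs secretory granules, mainly in blood cells. It had 49, 24 and 31 counts in the controls, and 7, 9 and 5 counts in the knockdown libraries. The controls were uneven, but each was above all knockdown libraries, and the fall was 4.74-fold (log2 fold change -2.24 ± 0.37 SE, adjusted p = 4.0e-05). Of the blood cell markers, CD3E and HBB had at most 3 counts in any library and PTPRC averaged 0.214 and 0.296 CPM. CD14, which passed the filter only through the NC siRNA group, fell from 1.70 to 0.635 CPM. CD68, a lysosomal protein, rose from 117.4 to 143.8 CPM. The summed level of the blood cell markers was 113.1 to 126.6 CPM with NC siRNA and 138.7 to 151.0 CPM with BNC2 siRNA. Its part in the fall of SRGN was not tested.

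From a list of 20 further core proteins, 5 were tested, of which 1 rose and 3 fell, beside 36.6% and 36.2% of all genes. The one that rose was COL18A1, which encodes collagen XVIII, a basement membrane collagen with heparan sulfate chains, from 29.3 ± 2.78 to 97.4 ± 2.81 CPM (log2 fold change 1.73, adjusted p = 4.2e-12).

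Linker synthesis did not move as a block. XYLT2, a xylosyltransferase that starts the linker, rose from 28.3 ± 0.346 to 45.4 ± 1.69 CPM (log2 fold change 0.68 ± 0.07 SE, adjusted p = 2.5e-07), and its homolog XYLT1 had 1 count in 1 library. B3GAT3, which adds the closing glucuronic acid of the linker, fell from 26.2 ± 1.40 to 14.4 ± 0.435 CPM (log2 fold change -0.87 ± 0.09 SE, adjusted p = 1.6e-07). B4GALT7, which adds the galactose next to xylose, had 12.3 ± 0.663 CPM and 10.4 ± 1.05 CPM. Its libraries did not overlap, but the change was not called (log2 fold change -0.24 ± 0.11 SE, adjusted p = 0.067), and scaling by total counts alone brought it past the threshold (log2 fold change -0.32). Of 3 further genes, FAM20B, the kinase that phosphorylates the xylose, and ACPL2, the phosphatase that acts on it, fell. ACPL2 went from 6.17 ± 0.863 to 2.78 ± 0.465 CPM (log2 fold change -1.15, adjusted p = 2.3e-05).

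Among enzymes of chondroitin and dermatan sulfate more rose than fell. Of the 11 genes 8 were tested, with 5 called higher and 2 lower, where 36.6% and 36.2% of all genes were called in these directions. In the step that lengthens the chain, CHPF, whose transcript was the most abundant of this step per kb with NC siRNA, fell from 80.0 ± 5.53 to 55.6 ± 5.50 CPM (log2 fold change -0.53, adjusted p = 1.2e-05), and its relative CHPF2 rose from 40.4 ± 0.537 to 68.1 ± 4.78 CPM (log2 fold change 0.75, adjusted p = 5.7e-08). The ratio of CHPF2 to CHPF per kb went from 0.384 ± 0.0210 to 0.934 ± 0.0928 (SD, n = 3), and per coding kb from 0.508 to 1.23, so which of them was higher with knockdown depended on the length used. CHSY1, a synthase with which both work, rose by less (log2 fold change 0.28, adjusted p = 0.0035). CSGALNACT2, which adds the residue that commits the linker to chondroitin, fell from 39.9 ± 4.03 to 26.7 ± 1.74 CPM (log2 fold change -0.58, adjusted p = 1.5e-05). CSGALNACT1 had at most 1 count in any library and CHSY3 at most 2.

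DSE is the epimerase that turns glucuronic into iduronic acid and so makes dermatan sulfate out of chondroitin. It had 11.0, 11.6 and 10.8 CPM in the controls, and 23.8, 27.2 and 25.8 CPM in the knockdown libraries. Every library with BNC2 siRNA was above every control, and the rise was 2.30-fold (log2 fold change 1.20 ± 0.09 SE, adjusted p = 6.9e-09). Its relative DSEL, which is not one of the 51 genes, rose from 102.5 ± 9.14 to 234.3 ± 15.5 CPM (log2 fold change 1.19, adjusted p = 2.0e-10). CHST14, the sulfotransferase that acts on dermatan, rose from 10.5 ± 1.41 to 34.3 ± 2.30 CPM (log2 fold change 1.70, adjusted p = 2.7e-10).

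Of the 4 chondroitin sulfotransferases among the 51 genes, CHST11 and CHST3 rose, CHST12 was not called and CHST15 was not tested. CHST11, which places sulfate at the 4-position, had 48.3, 47.0 and 44.8 CPM in the controls, and 96.7, 92.9 and 99.96 CPM in the knockdown libraries. This 2.07-fold rise was seen in every library (log2 fold change 1.05 ± 0.06 SE, adjusted p = 2.9e-10). CHST12, a 4-O-sulfotransferase of the same family, had 17.1 ± 1.07 and 19.1 ± 1.46 CPM with overlapping groups and was not called (log2 fold change 0.16 ± 0.10 SE, adjusted p = 0.14). CHST3, which sulfates the 6-position, rose from 45.5 ± 2.33 to 57.7 ± 3.45 CPM (log2 fold change 0.34, adjusted p = 0.00038), and CHST15 had at most 2 counts in any library. In a list of 10 further enzymes of chondroitin, dermatan and keratan sulfate, 7 were tested, 5 rose and 1 fell (36.6% and 36.2% of all genes did so). The one that fell was UST, a 2-O-sulfotransferase of chondroitin and dermatan sulfate (log2 fold change -0.46, adjusted p = 8.9e-05). Besides DSEL and CHST14, a change of at least 2-fold was called for CHST6, a keratan sulfate sulfotransferase, which went from 0.249 ± 0.141 to 1.89 ± 0.203 CPM (log2 fold change 2.89, adjusted p = 3.3e-06) and passed the filter only through the BNC2 siRNA group.

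In heparan sulfate synthesis, paired enzymes moved apart. EXT1 and EXT2 form the polymerase that lengthens the chain. EXT1, the most abundant transcript of this step, rose from 287.1 ± 15.3 to 418.5 ± 3.17 CPM (log2 fold change 0.54, adjusted p = 1.7e-07), and EXT2 fell from 78.7 ± 3.82 to 61.6 ± 3.999 CPM (log2 fold change -0.35, adjusted p = 0.00018). EXTL3, which adds the sugar that commits the linker to heparan sulfate, had 28.2, 26.5 and 25.5 CPM in the controls, and 54.1, 55.3 and 59.9 CPM in the knockdown libraries. No control library reached the lowest of the others, and the rise was 2.11-fold (log2 fold change 1.08 ± 0.07 SE, adjusted p = 1.5e-09). EXTL2, which can also transfer a sugar to the linker, had 13.4 ± 1.18 and 14.0 ± 1.60 CPM and was not called (log2 fold change 0.06 ± 0.11 SE, adjusted p = 0.65).

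The enzymes that modify the heparan chain in the Golgi also split. NDST1, an N-deacetylase and N-sulfotransferase and the most abundant of these per kb, rose from 231.6 ± 18.1 to 369.4 ± 5.23 CPM (log2 fold change 0.67, adjusted p = 3.8e-08), whereas NDST2 fell from 27.6 ± 1.41 to 20.0 ± 0.639 CPM (log2 fold change -0.47, adjusted p = 8.8e-05). HS2ST1, the 2-O-sulfotransferase, rose from 54.0 ± 4.20 to 71.0 ± 4.19 CPM (log2 fold change 0.39, adjusted p = 0.00012). HS6ST1, which adds sulfate at the 6-position of glucosamine, had 21.2, 18.8 and 21.0 CPM in the controls, and 8.90, 8.74 and 8.79 CPM in the knockdown libraries. The treated libraries were nearly equal and well below the controls, a 2.30-fold fall (log2 fold change -1.20 ± 0.10 SE, adjusted p = 1.5e-08). HS6ST2 had no counts and HS3ST3A1 at most 1 count in any library. Of 11 further heparan enzymes 2 were tested. GLCE, the epimerase of heparan sulfate, fell from 37.8 ± 1.65 to 20.7 ± 1.496 CPM (log2 fold change -0.87, adjusted p = 7.6e-08), and HS3ST1, a 3-O-sulfotransferase, rose from 1.37 ± 0.420 to 5.83 ± 0.621 CPM (log2 fold change 2.07, adjusted p = 1.8e-07).

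SULF1 and SULF2 are secreted sulfatases that remove the 6-O-sulfate from heparan sulfate outside the cell, the same sulfate that HS6ST1 adds. SULF2 had 16, 18 and 15 counts in the controls, and 134, 141 and 132 counts in the knockdown libraries. This is 0.937 ± 0.0612 CPM against 8.05 ± 0.317 CPM, an 8.52-fold rise and the largest among the 35 genes (log2 fold change 3.09 ± 0.19 SE, adjusted p = 2.5e-10). It was low with NC siRNA, where 1 of 3 libraries exceeded 1 CPM. SULF1 had 10.2, 12.5 and 10.8 CPM in the controls, and 9.89, 10.7 and 11.7 CPM in the knockdown libraries. The groups overlapped and no change was called (log2 fold change -0.06 ± 0.12 SE, adjusted p = 0.68). Per kb of transcript, SULF2 stood at 0.125 ± 0.00600 of SULF1 with NC siRNA and at 1.12 ± 0.0530 of it with BNC2 siRNA (SD, n = 3). Against HS6ST1 the ratio went from 0.0515 ± 0.00689 to 1.01 ± 0.0449. Per coding kb these ratios were 0.0843 and 0.751 to SULF1, and 0.0219 and 0.432 to HS6ST1, so that equal levels are not shown, while the rise of each ratio is the same with both lengths. These are transcript levels, and neither enzyme activity nor the sulfation of chains was measured here.

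**Figure D3:**
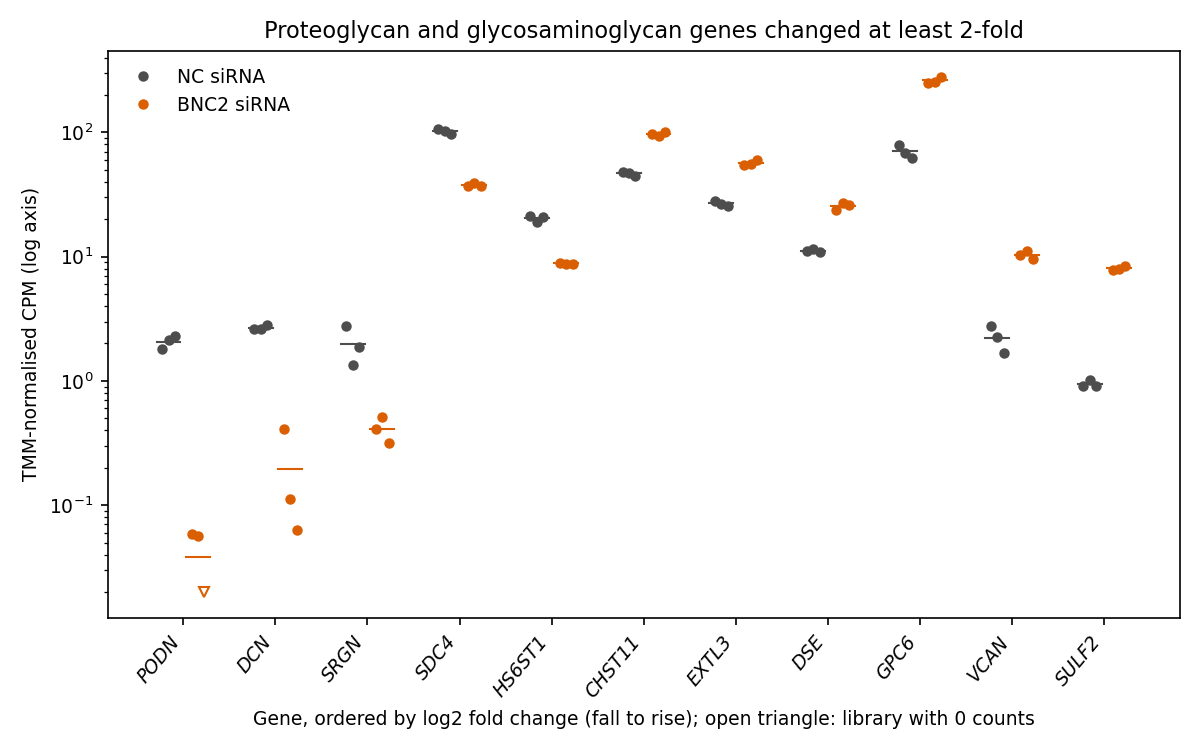
The plot of levels by library gives the TMM-normalised CPM, on a log axis, of the 11 genes called with at least a 2-fold change. Points are single libraries, lines are group means (n = 3) and the open triangle marks a library with 0 counts. The groups do not overlap for any of the 11 genes, and PODN, DCN, SRGN and SULF2 have a group mean below 1 CPM.

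Side by side, several pairs that share a step or a place changed their balance. Per kb, SDC1 stood at 0.445 ± 0.0144 of SDC4 with NC siRNA and at 2.37 ± 0.186 of it with BNC2 siRNA (SD, n = 3). GPC6 went from 1.04 ± 0.139 to 3.71 ± 0.114 times GPC1, and NDST1 from 3.94 ± 0.362 to 8.68 ± 0.314 times NDST2. EXT1 went from 4.45 ± 0.240 to 8.30 ± 0.603 times EXT2, and XYLT2 from 0.447 ± 0.0206 to 1.31 ± 0.0779 times B3GAT3. With coding length the levels of some ratios were different, as for GPC6 to GPC1 (2.00 and 7.15) and NDST1 to NDST2 (8.41 and 18.5), whereas the change between groups does not depend on length. In each of these pairs the libraries of the groups did not overlap, and an exact permutation test, two-sided, of 3 values against 3 reaches no p below 0.1. Each ratio was set with a gene that rose over one that fell or was not called. Its rise thus restates the changes given above and adds no separate evidence.

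**Figure D4:**
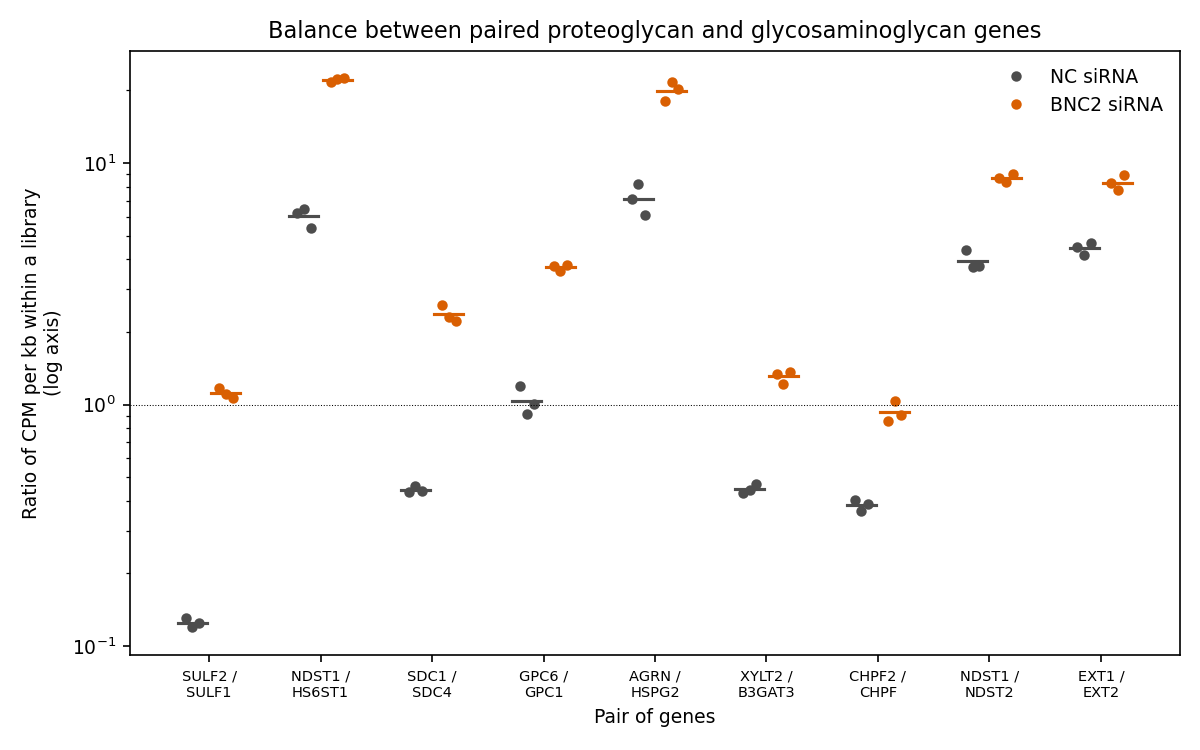
The plot of ratios gives, for 9 pairs of genes, the ratio of CPM per kb within each library on a log axis, using transcript length, with points for libraries, lines for group means (n = 3) and a dotted line at equal levels. In each pair all knockdown libraries lie above all controls, and SULF2 against SULF1 moves from 0.125 to 1.12. Every ratio sets a gene that rose over one that fell or was not called, so the shared upward direction follows from that choice.

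The chains need activated sugars and sulfate, and they are taken apart in lysosomes. All 14 genes on the list of precursor supply and transport were tested, and 7 rose and 6 fell, beside 36.6% and 36.2% of all genes. UXS1, which makes UDP-xylose for the first sugar of the linker, fell from 49.9 ± 3.88 to 22.3 ± 1.51 CPM (log2 fold change -1.16, adjusted p = 2.5e-09), and SLC26A2, a sulfate carrier, rose from 29.7 ± 4.96 to 62.7 ± 5.02 CPM (log2 fold change 1.07, adjusted p = 6.2e-08). Of 13 genes of chain breakdown 12 were tested, and 9 fell and 2 rose, beside 36.2% called lower and 36.6% called higher among all genes. The falls included IDS, the iduronate sulfatase (111.1 ± 7.58 to 45.9 ± 1.33 CPM, log2 fold change -1.27, adjusted p = 5.3e-11), and IDUA, the iduronidase (7.50 ± 0.440 to 3.60 ± 0.758 CPM, log2 fold change -1.05, adjusted p = 1.9e-05). The 2 that rose were SGSH, the heparan sulfamidase, and GUSB, the glucuronidase. Over all 71 further genes of the pathway 43 were tested, and 16 rose and 22 fell, beside the same 36.6% and 36.2% of all genes.

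Promoters are shown for genes that changed at least 2-fold and have a single start in the RefSeq table. The table (GRCh38.p14) held 55 promoters of 300 bases for 41 of the 51 genes. Positions are those of the single exact match in GRCh37, each sequence is written 5′ to 3′ on the strand of the gene, and capitals mark the motifs found. SDC4 also has a single start, but its listed sequence had no exact match in GRCh37 and is not shown. GPC6, VCAN and CHST11 rose, and PODN and HS6ST1 fell.
GPC6 promoter, chr13:93878810-93879109, plus strand: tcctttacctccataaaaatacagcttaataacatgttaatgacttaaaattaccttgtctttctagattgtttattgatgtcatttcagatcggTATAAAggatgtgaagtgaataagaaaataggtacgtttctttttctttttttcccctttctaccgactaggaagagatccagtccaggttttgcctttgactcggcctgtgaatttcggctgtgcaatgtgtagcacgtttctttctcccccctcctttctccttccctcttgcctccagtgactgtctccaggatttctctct
VCAN promoter, chr5:82767313-82767612, plus strand: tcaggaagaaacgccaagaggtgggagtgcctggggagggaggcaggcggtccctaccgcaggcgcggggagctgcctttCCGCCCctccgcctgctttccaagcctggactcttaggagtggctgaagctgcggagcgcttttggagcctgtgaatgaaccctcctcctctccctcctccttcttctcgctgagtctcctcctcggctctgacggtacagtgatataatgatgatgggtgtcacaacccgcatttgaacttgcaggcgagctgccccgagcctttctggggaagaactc
CHST11 promoter, chr12:104850476-104850775, plus strand: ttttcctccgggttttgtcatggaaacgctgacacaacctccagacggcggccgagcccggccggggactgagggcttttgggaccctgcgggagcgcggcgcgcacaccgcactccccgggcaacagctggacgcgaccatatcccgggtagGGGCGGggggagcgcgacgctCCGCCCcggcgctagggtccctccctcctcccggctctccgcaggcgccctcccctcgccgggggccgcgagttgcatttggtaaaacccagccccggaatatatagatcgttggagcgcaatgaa
PODN promoter, chr1:53527635-53527934, plus strand: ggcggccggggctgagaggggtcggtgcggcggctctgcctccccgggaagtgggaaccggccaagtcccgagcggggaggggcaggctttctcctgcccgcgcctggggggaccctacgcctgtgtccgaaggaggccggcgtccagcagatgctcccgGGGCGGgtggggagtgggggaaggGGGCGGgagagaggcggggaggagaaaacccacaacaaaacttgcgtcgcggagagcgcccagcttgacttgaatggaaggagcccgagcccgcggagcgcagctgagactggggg
HS6ST1 promoter, chr2:129076393-129076692, minus strand: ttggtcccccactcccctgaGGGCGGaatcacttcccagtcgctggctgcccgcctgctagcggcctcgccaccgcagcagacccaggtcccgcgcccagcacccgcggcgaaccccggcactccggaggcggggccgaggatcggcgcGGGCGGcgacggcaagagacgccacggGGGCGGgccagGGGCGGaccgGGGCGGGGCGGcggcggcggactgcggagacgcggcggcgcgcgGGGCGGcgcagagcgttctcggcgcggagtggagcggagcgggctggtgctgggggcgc

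The motifs searched, on both strands, were the AP-1 site TGANTCA, the GC box GGGCGG, the CCAAT box CCAAT, the TATA box TATAAA and the ZEB E-box CACCTG. Of the promoters printed, HS6ST1 holds 7 GC boxes, a pair of which overlap, PODN and CHST11 hold 2 each, VCAN holds 1, and GPC6 holds none but a TATAAA that starts at -155 from the listed start. A GC box was in 43 of the 55 promoters (36 of the 41 genes), in 45.0% of all 35116 promoters of the table and in 66.5% of those of genes tested here. TATAAA was in 6 of the 55 promoters (11.5% of all promoters, 6.10% of those of genes tested), CCAAT in 13 (34.6% and 34.9%), CACCTG in 8 (20.6% and 17.7%) and TGANTCA in 2, those of CHST3 and NDST1 (7.71% and 5.13%). The genes that rose and those that fell both include promoters with GC boxes. A match is only a match of letters, and binding was not measured here.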

How the data were processed

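The authors isolated poly(A) RNA, sequenced single-end reads and aligned them to hg19 (iGenomes UCSC annotation) with STAR 2.6.1d, per the methods and the submitters' processing notes. The authors deposited raw read counts per gene of the reverse strand, with no normalisation. Reads on no gene (37.7% to 41.1% per library) were left out, and no column lay outside the 6 samples. The methods call the libraries biological replicates. The 51 genes and the other lists were chosen with earlier results of these data known. A marker gene on these lists is not reported here.

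Using R 4.3.3 and edgeR 4.0.16, 12186 genes with over 1 CPM in 3 or more libraries were kept, scaled by TMM (factors 0.972 to 1.04) and fitted by the quasi-likelihood test without a block. Benjamini-Hochberg adjustment covered all of them. CPM are TMM-normalised. The standard error is the log2 fold change divided by the root of F. On simulated counts from these libraries, in which 200 genes changed 2-fold, 191 of the 197 tested (97%) were recovered, with 9 false calls. Far fewer genes changed there than in the data, where 72.9% of all genes tested were called. These figures therefore do not cover scaling when most genes change, nor changes of less than 2-fold. Limits use 3 counts per library, well under 1 CPM at this depth, and cover counting error only. Transcript lengths and positions come from GENCODE release 44 on GRCh37, and promoters from RefSeq. Genes named with full values are those called with at least a 2-fold change, those not called, the most abundant of each role and their partners; genes under the filter are named with their counts. Alternatives were the likelihood ratio test of the study, DESeq2 1.42.0, its size factors, total counts, no filter, filterByExpr, STAR's counts made without regard to strand, a replicate block, omission of single libraries and, chosen after seeing the data, a mean of at least 5 CPM.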

Additional observations from a re-analysis of the deposited data

Results flagged for a closer look

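The deposited table counts the sense strand only, and the library tables also hold reads on the other strand, which no comparison above uses. On the strand opposite CHST11 the controls (NC siRNA) had 10, 9 and 2 counts, and the knockdown libraries (BNC2 siRNA) had 18, 26 and 14, with means of 0.396 CPM and 1.14 CPM. Opposite SDC1 the counts were 18, 21 and 18 against 25, 24 and 30 (1.09 and 1.57 CPM), and opposite XYLT2 they were 19, 15 and 19 against 31, 25 and 31 (1.02 and 1.73 CPM). In these 3 cases each knockdown library was above each control, and the sense strand rose as well. How often the groups separate on that strand among all genes was not computed, so neither these cases nor the counts below set the 51 genes apart. The groups overlapped opposite 39 of the 51 genes. Opposite 9 the reads were fewer in each knockdown library than in each control, some at very few counts. These were SDC3 (50, 34 and 48 against 20, 29 and 12 counts), SDC4, GPC1, GPC2, HSPG2, CHPF and OGN, and also SULF2 (5, 4 and 6 against 3, 3 and 2) and HS2ST1 (9, 7 and 5 against 0, 1 and 1), whose sense strand rose. None of these differences was tested, and where the reads come from was not tested.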

How the results depend on the processing

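Of 511 values of the 35 genes tested, over 15 alternatives, 500 kept their direction and their side of the threshold, and 31 genes did so in every alternative that tested them. No called gene lost its call while it was tested. Sizes could shift: with counts made without regard to strand, the log2 fold change of SULF2 went from 3.09 to 2.74. That of HSPG2 went from -0.90 to -0.65. B4GALT7 passed the threshold in 4 alternatives: scaling by total counts (log2 fold change -0.32), a mean of at least 5 CPM (-0.28), and without NC siRNA replicate 3 (-0.30) or BNC2 siRNA replicate 2 (-0.31). The sign changed only in genes that were not called: with total counts GPC1 was at -0.021 and EXTL2 at -0.018, and over the fits that leave out a library GPC1 ranged from -0.020 to 0.11, EXTL2 from -0.030 to 0.16 and SULF1 from -0.14 to 0.016. Genes called with at least a 2-fold change numbered 11. Requiring a mean level of 5 CPM left 7 of them, since this tests 30 of the genes and leaves out DCN, PODN, SRGN and SULF2. They ranged from 7 to 12 when a library was left out, with the 7 without NC siRNA replicate 3. Leaving out an NC siRNA library removes DCN, PODN and SRGN from the test. Scaling by total counts lowered the median of all genes by 0.076 and gave 9. Deviations of same-numbered libraries from their group means correlated at -0.21, -0.081 and -0.13, so no shared replicate effect was seen. These values cannot settle whether the samples were prepared in pairs. With a replicate block 28 genes were called, 15 up and 13 down, 11 of them by at least 2-fold, beside 68.9% of all genes called (72.9% without it). Depth limits the 16 genes below the filter, and no difference in them was detectable: without the filter 47 genes were tested and 28 called, beside 53.3% of all genes.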

Other observations

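Summed per kb of transcript, the steps of chain synthesis did not move alike. The 4 enzymes of heparan chain synthesis summed to 50.7 ± 2.40 CPM per kb in the controls (NC siRNA) and 68.7 ± 0.790 in the knockdown libraries (BNC2 siRNA), and the 6 genes of heparan modification in the Golgi to 49.1 ± 2.84 and 64.0 ± 1.26 (SD, n = 3 each). The 4 chondroitin sulfotransferases summed to 15.8 ± 0.664 and 26.3 ± 1.10 CPM per kb. The 4 linker genes summed to 33.4 ± 1.39 and 29.0 ± 0.669 CPM per kb. The 7 genes of chondroitin and dermatan chain synthesis summed to 56.9 ± 1.69 and 55.4 ± 1.25 CPM per kb, with groups that overlapped. The direction of this last small difference depends on the length used, so none is read from it. All the sums here are led by their most abundant members, among them EXT1, NDST1, CHST11, CHPF and B3GAT3, and were not tested.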
